A study of Mus musculus with 4 samples.

Results

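Rgcc (regulator of cell cycle, ENSMUSG00000022018) was described as 1 gene of the 32285 counted in a single-cell experiment on mouse bone marrow. It was chosen from measured values, because its RNA was far lower in 1 of the 4 libraries than in the other 3. The levels that set this library against control are therefore given as a description, without a test. RNA and surface proteins were read in the same cells (CITE-seq, in which antibodies carry DNA barcodes that are sequenced with the RNA). All 4 groups consisted of CD45.2+Kit+ bone marrow cells, that is, cells with the CD45.2 form of the CD45 surface protein and with the stem cell factor receptor Kit, collected 10 weeks post-transplantation. There was 1 library of each of 4 groups, which the labels name control, Mll3SI, Mll4SI and Mll3/4SI. The labels do not spell out SI, and they give neither the genotype of the control nor the number, sex or age of the animals.

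With 1 library for each group there was no replicate, so no p-value could be given. Every interval in brackets covers counting error at 95% confidence, and differences between animals or preparations are not in it. Unique molecular identifiers (UMIs) were counted, and a level in CPM is the number of Rgcc UMIs per 1000000 gene UMIs summed over the same cells. Between 6743 and 10186 cells of each library were kept, with medians of 12796.5 to 19217 gene UMIs for a cell. MLL3 and MLL4 are the histone methyltransferases encoded by Kmt2c and Kmt2d. In the order control, Mll3SI, Mll4SI, Mll3/4SI, Kmt2c stood at 128.8, 110.5, 146.8 and 122.6 CPM and Kmt2d at 41.2, 38.0, 35.2 and 33.2 CPM. The labels state no allele and the reads are 3′ tags, so these levels check no label. The sex-linked RNAs did separate the libraries: Xist, the RNA that coats the inactive X chromosome, was at 0.031, 0.20, 1146 and 1359 CPM in that order. Between 10 and 21 barcodes were shared by each pair of libraries, and the 39 Mll3/4SI cells with a shared barcode held 21.7 CPM of Rgcc against 25.1 in the rest.

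Rgcc encodes a small intracellular protein that is known to bind the mitotic kinase CDK1 and to act as a partner and target of Smad3 in TGF-beta signalling. It was first described as a gene that responds to complement attack on the cell membrane, and p53 is known to induce it. MLL3 and MLL4 are known for placing methyl groups on histone H3 lysine 4 at enhancers, the distal switches of genes. Myeloid progenitors pass through a promyelocyte stage in which genes of the primary (azurophil) granules, such as elastase and myeloperoxidase, are at their height, before the genes of the secondary granules follow.

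By the GENCODE M21 gene models for GRCm38, Rgcc lies at chr14:79288756-79301645 on the minus strand, as a protein-coding gene with 1 annotated transcript of 5 exons. Its promoter is shown because the RNA of Rgcc was far below control in 1 library while that of its neighbours was not. The 240 bases just upstream of the annotated start (chr14:79301646-79301885, minus strand, RefSeq sequence of GRCm38.p6) read, 5′ to 3′, with capitals marking the GC boxes (GGGCGG or its complement) and a TATA-like match (TATAAG):
Rgcc promoter: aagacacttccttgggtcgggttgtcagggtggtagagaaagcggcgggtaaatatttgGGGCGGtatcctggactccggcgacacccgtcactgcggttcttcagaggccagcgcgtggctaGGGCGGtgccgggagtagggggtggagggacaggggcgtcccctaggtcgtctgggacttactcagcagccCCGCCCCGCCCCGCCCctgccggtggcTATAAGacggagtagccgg

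The window was 65.8% G or C and held 20 CpG dinucleotides, against medians of 52.1% and 5 over the same 240 bases of 32851 promoters. GGGCGG occurred 5 times on either strand, and the 3 matches nearest the start overlap one another in a run of CCGCCC. At least 1 such match was found in 31.3% of all promoters. TATAAG began 19 bases before the start, and 6.50% of promoters held it on either strand. CAGAC, the core letters of a Smad-binding element, occurred 1 time, as it did at least 1 time in 40.9% of promoters. CCAAT had no match, against 33.0% of promoters with one. These matches are letters in a window and were not measured here as binding sites.

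Over all kept cells, control held 284.9 CPM of Rgcc [282.0 to 287.9]. Mll3SI held 324.3 CPM [321.2 to 327.5], Mll4SI 227.1 [224.7 to 229.6] and Mll3/4SI 25.1 [24.2 to 25.9]. The first 3 libraries lay close to one another, and the Mll3/4SI library stood alone below them. Against control, Mll3SI had a log2 ratio of 0.19 [0.17 to 0.21] and Mll4SI one of -0.33 [-0.35 to -0.31]. That of Mll3/4SI was -3.51 [-3.56 to -3.46], an 11.4-fold lower level. Of the 8166 genes with a mean of at least 10 CPM, 9 were lower in Mll3/4SI by a log2 ratio of at least 2 (of CPM + 1), which is 0.110%, and Rgcc was the 7th lowest. In control it was an abundant transcript, the 402nd highest of 8235 genes at 10 CPM or more.

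Fewer Mll3/4SI cells held Rgcc, and those that did held less of it. At least 1 Rgcc UMI was present in 77.1% of control cells, 77.9% of Mll3SI cells, 67.7% of Mll4SI cells and 28.2% of Mll3/4SI cells. After each cell was thinned to 3000 gene UMIs, so that depth no longer differed, these shares were 42.8%, 46.6%, 36.1% and 7.11%, with 114 to 216 shallower cells left out of each library. Among cells with any Rgcc UMI, the means were 6.97, 6.39, 4.82 and 1.87 UMIs in the same order. Cells with 10 or more Rgcc UMIs made up 15.5% of control, 15.8% of Mll3SI and 8.36% of Mll4SI, but only 8 of the 6755 Mll3/4SI cells (0.118%). Of those 8 cells, 7 were granulocyte-like. The gene was therefore much lower and not absent in Mll3/4SI.

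Each library also carried 2 hashtag antibodies, whose meaning the labels do not give. Cells positive for Hashtag1 alone held 248.9, 312.5, 218.0 and 27.6 CPM of Rgcc (libraries in the same order), and cells positive for Hashtag2 alone held 318.4, 329.2, 237.3 and 22.02. The low level of Mll3/4SI was present in both hashtag sets. The 2 control sets differed from each other by more than either single mutant library differed from control over all cells.

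Cells were clustered jointly without Rgcc and without the marker genes, and clusters were named from marker genes. The naming gave granulocyte-like, monocyte-like, HSC/MPP-like (haematopoietic stem cells and multipotent progenitors), basophil/mast-like, B-lymphoid-like, erythroid-like and dendritic-like cells. Within the granulocyte-like class, 3 clusters (6, 12 and 15) were led by primary granule genes such as Elane and Mpo, and all 4 libraries contributed to them. The granulocyte-like and monocyte-like classes together are called granulocyte-monocyte-like. Mll3/4SI also had 1872 cells (27.7% of the library) in clusters 16, 21 and 22, which stayed unnamed and held at most 7 cells of any other library.

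In granulocyte-monocyte-like cells Rgcc stood at 352.7, 389.8, 250.8 and 35.3 CPM (control, Mll3SI, Mll4SI, Mll3/4SI). The log2 ratio of Mll3/4SI was -3.32 [-3.37 to -3.27], with 0.103% of the 7781 genes tested lower by at least 2. That of Mll4SI was -0.49, and it turned to 0.08 without the clusters that hold over 80% of their cells from 1 library, an alternative added after the data were seen. The share of thinned cells with an Rgcc UMI was 51.2%, 54.4%, 38.4% and 9.46%.

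Taken as sets of cells, the primary-granule clusters held the highest Rgcc level of each library. Control held 780.7 CPM there [769.1 to 792.3], Mll3SI 779.3, Mll4SI 643.4 and Mll3/4SI 64.9 [60.3 to 69.8]. In control it ranked 168th of 8093 genes, and it was itself among the 10 leading genes of clusters 12 and 15, so this height is a description. The log2 ratios were -0.003 for Mll3SI [-0.03 to 0.03], -0.28 for Mll4SI [-0.31 to -0.24] and -3.59 for Mll3/4SI [-3.70 to -3.48], or 12.02-fold lower. In these clusters 0.0990% of the 8084 genes tested were lower in Mll3/4SI by a log2 ratio of at least 2. The primary-granule clusters made up 13.8% of control cells but held 48.2% of the control Rgcc UMIs. In Mll3/4SI they were 6.19% of the cells and 20.5% of the Rgcc UMIs. The highest control level was that of cluster 15, at 1050 CPM, followed by cluster 12 at 990.8 and cluster 6 at 487.8. In Mll3/4SI the same 3 clusters held 139.6, 70.8 and 24.3 CPM, so their order was kept at levels 7.53, 14.0 and 20.1 times lower. Single clusters outside the set could be higher: in Mll3/4SI clusters 14 (78.0 CPM), 10 (57.03) and 4 (53.9) were above cluster 6, and 23 Mll4SI cells in cluster 4 held 854.4 CPM.

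**Figure D1:**
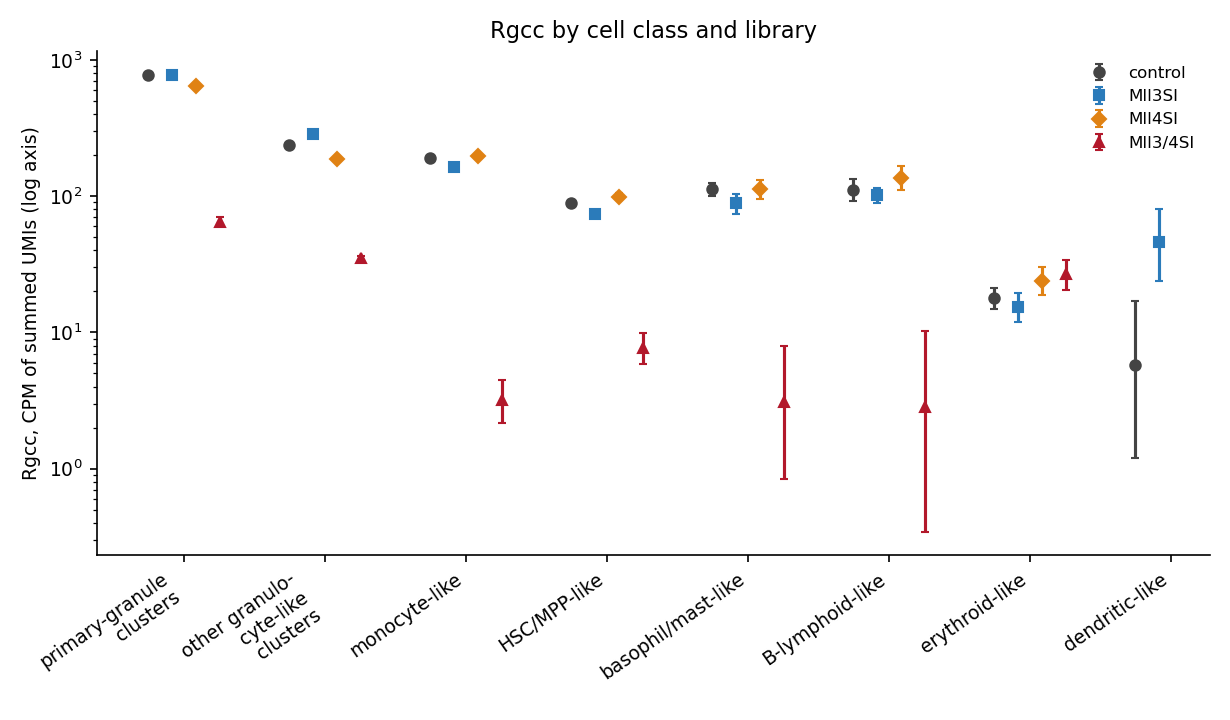
Rgcc in CPM of summed UMIs (log axis) by cell class and library; points are levels and bars are exact Poisson intervals at 95%, which cover counting error only. The control, Mll3SI and Mll4SI libraries sit together in every class from primary-granule to B-lymphoid-like cells, with Mll3/4SI well below them. The erythroid-like class lies at 17.8 CPM in control and 26.7 in Mll3/4SI, where 1 cell holds 43 of the 63 Rgcc UMIs. Without the highest cell of each library, these levels are 15.2 and 8.68 CPM.

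The other granulocyte-like clusters differed in their leading genes, which included secondary granule or division genes in some but not in all. Together they held 236.0, 285.7, 186.3 and 34.99 CPM (control, Mll3SI, Mll4SI, Mll3/4SI), a log2 ratio of -2.75 for the last [-2.82 to -2.69]. These values mix different clusters: clusters 2, 3, 8, 17 and 20 came mostly from Mll4SI, and clusters 13 and 27 from Mll3/4SI. Mll4SI cells in its own clusters ran from 60.1 CPM (cluster 3, with Mmp9 and Retnlg among its leading genes) to 230.9 (cluster 2). Mll3/4SI cells in clusters 13 and 27, led by stefin genes such as Stfa1, held 26.0 and 34.5 CPM. In the shared clusters 0, 1, 4, 10, 14 and 19, control held 154.0 to 303.5 CPM and Mll3/4SI 28.4 to 78.0. Cluster 25, with 20 Mll3/4SI cells, had the smallest gap, at 50.1 and 24.3 CPM (log2 ratio -1.04 [-3.48 to 0.80]). Cluster 0 held 198.2, 245.6, 314.0 and 28.4 CPM (control, Mll3SI, Mll4SI, Mll3/4SI), from 920, 1204, 58 and 460 cells. Cluster 14, with 240, 244, 376 and 178 cells, held 299.5, 366.8, 272.4 and 78.0 CPM. Mll4SI was thus above control in cluster 0 and below it in cluster 14. The log2 ratio of Mll3/4SI was -2.80 in cluster 0 and -1.94 in cluster 14.

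Monocyte-like cells showed a deeper difference. Control cells of this class held 190.2 CPM [184.4 to 196.3], Mll3SI cells 164.4, Mll4SI cells 196.3 and Mll3/4SI cells 3.18 [2.16 to 4.52]. The log2 ratio was -5.90 [-6.46 to -5.39], a 59.8-fold lower level, whereas that of granulocyte-like cells was -3.33 [-3.38 to -3.27]. These counting intervals do not overlap, but whether they would hold between animals was not tested. The 299 Mll3/4SI monocyte-like cells carried 31 Rgcc UMIs in all, at most 2 in a cell. In control this class held 10.9% of the library's Rgcc UMIs, and in Mll3/4SI 0.869%. Both monocyte-like clusters showed it: cluster 7 went from 192.6 to 2.4 CPM and cluster 5 from 187.7 to 4.1.

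The B-lymphoid-like and basophil/mast-like cells were alike in this respect, on few cells. B-lymphoid-like cells held 111.3, 101.2, 135.9 and 2.83 CPM (control, Mll3SI, Mll4SI, Mll3/4SI). The Mll3/4SI value rests on 2 UMIs in 36 cells, and its log2 ratio was -5.30 [-8.36 to -3.42]. Basophil/mast-like cells held 112.2, 88.4, 112.8 and 3.10 CPM, the last from 4 UMIs in 65 cells, a log2 ratio of -5.18 [-7.06 to -3.80]. At full depth, 5.56% and 6.15% of these Mll3/4SI cells had an Rgcc UMI. After thinning, 0 of 36 and 0 of 65 did, which at 3000 UMIs allows shares of cells with a UMI of up to 8.33% and 4.62%.

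**Figure D2:**
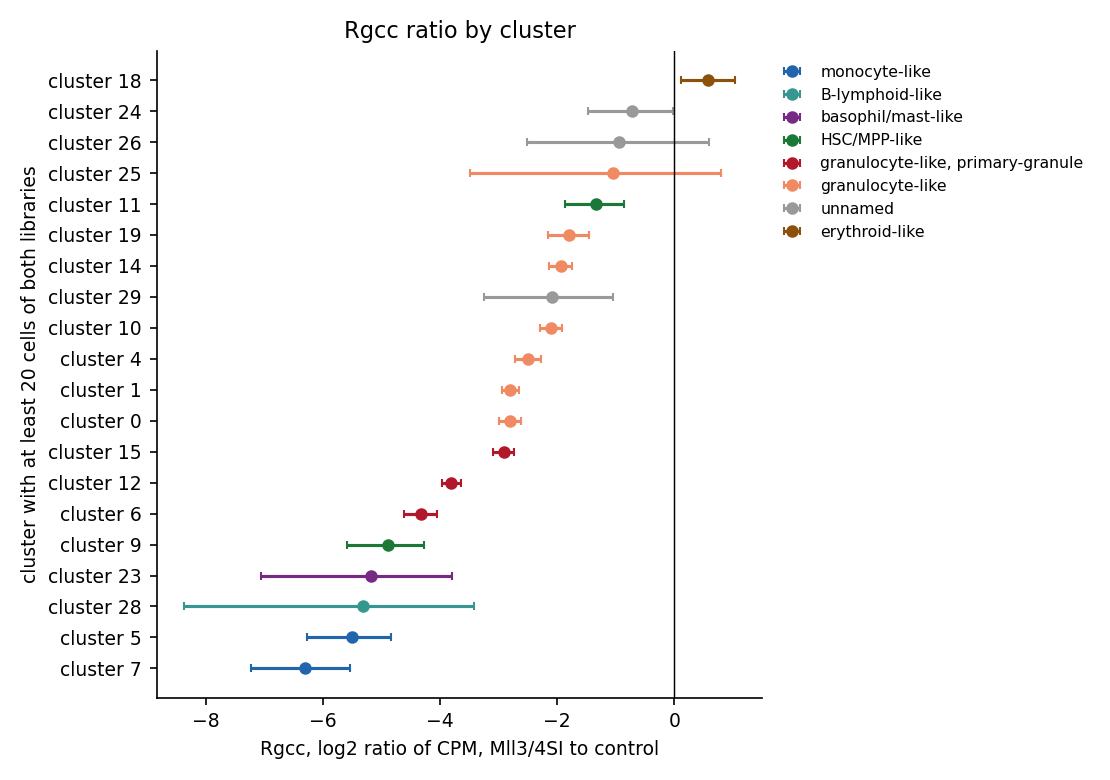
Log2 ratio of Rgcc CPM, Mll3/4SI to control, in each cluster with at least 20 cells of both libraries; points are ratios, bars are exact conditional binomial intervals at 95% for counting error, and colours are cell classes. Clusters 7 and 5 (monocyte-like) lie lowest at -6.31 and -5.51. The primary-granule clusters lie between -4.33 and -2.91, and the other granulocyte-like clusters between -2.80 and -1.04. Erythroid-like cluster 18 alone lies above 0, where 1 Mll3/4SI cell holds 43 of the 63 Rgcc UMIs. Without the highest cell of each library its ratio is -0.81.

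In HSC/MPP-like cells, control held 89.1 CPM of Rgcc [84.7 to 93.7], Mll3SI 74.1 [69.5 to 78.8], Mll4SI 99.3 [94.0 to 104.8] and Mll3/4SI 7.68 [5.89 to 9.85]. The log2 ratio was -0.27, 0.16 and -3.54 [-3.93 to -3.17], and 0.127% of the 8658 genes tested in these cells were lower in Mll3/4SI by at least 2. The Mll3/4SI ratio was -4.93 with finer clusters, -4.50 when each cell took the class of its nearest control cells and -2.78 as a mean over cells. The direction of the Mll4SI value was not stable, at -0.05 and -0.08 under the first 2 of these settings. The share of thinned cells with an Rgcc UMI was 13.4%, 13.2%, 15.9% and 2.38%, and no thinned Mll3/4SI cell of 294 had 2 or more, which at that depth allows a share of up to 1.02%. At full depth 2.72% of them had 2 or more. The class was made of 2 clusters. Cluster 9, whose leading genes include Cd34 and Mecom, held 121.7, 102.9, 124.5 and 4.08 CPM (control, Mll3SI, Mll4SI, Mll3/4SI). Cluster 11, which carried 13 of the 15 HSC/MPP markers, held 35.6, 35.4, 20.6 and 14.0 CPM. Rgcc was thus higher in cluster 9 than in cluster 11 in control, Mll3SI and Mll4SI. The Mll3/4SI log2 ratio was -4.90 [-5.59 to -4.28] in cluster 9 and -1.35 [-1.86 to -0.86] in cluster 11, so the class ratio describes neither cluster. The Mll3/4SI levels of clusters 9 and 11 rest on 21 and 41 UMIs, 9 of the latter in 1 cell. They were 3.53 and 11.02 CPM without the highest cell of each, an alternative added after the data were seen. The thinned shares of Mll3/4SI cells with Rgcc in clusters 9 and 11 were 1.39% and 3.33%. They lie on either side of the 2.17% (2 of 92) of Mll3/4SI erythroid-like cells, which have little Rgcc in any library. No order is read from these shares. Both libraries drew on the clusters evenly, with 362 and 368 control cells and 144 and 150 Mll3/4SI cells.

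Rgcc in these cells also varied with the antibody signal for CD16/32, the Fc gamma receptors that mark progenitors on the granulocyte-monocyte path. HSC/MPP-like cells of each library were ranked by CD16/32 and split into 4 equal sets, a split chosen after the values were seen. In control the sets held 26.4, 27.1, 34.5 and 209.1 CPM of Rgcc from the lowest to the highest CD16/32. The highest set held 1195 of the 1537 control Rgcc UMIs of the class, so the control level of the class mostly describes those cells. They have the HSC/MPP-like name from their cluster, although CD16/32 marks progenitors on the granulocyte-monocyte path. In Mll3SI the sets held 26.4, 14.9, 50.2 and 157.6, and in Mll4SI 11.6, 22.1, 63.2 and 219.4. The Mll3/4SI sets held 16.7, 8.82, 4.47 and 3.94 CPM, from 28, 14, 9 and 11 UMIs, and 11.5, 5.09, 3.04 and 3.25 CPM without the cell of the most Rgcc UMIs in each. These levels are near that of the Mll3/4SI erythroid-like cells given below, a reference from few cells, so no order is read from them. What they show is that the climb to the highest set was not seen. Mll3/4SI and control were therefore closest in the cells lowest in CD16/32 and farthest apart in the highest. Median depth rose with CD16/32 in both libraries, from 17442 to 31151.5 gene UMIs in control and from 21578 to 36964 in Mll3/4SI, and a split by depth alone gave a like pattern. From shallow to deep, control HSC/MPP-like cells held 37.4, 31.0, 69.7 and 151.0 CPM and those of Mll3/4SI 17.7, 14.1, 2.25 and 5.01. For Sca1, a stem and multipotent cell antigen, the control sets held 156.1, 84.9, 47.8 and 33.2 CPM from lowest to highest, and the Mll3/4SI sets 2.98, 9.96, 3.89 and 18.1.

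In the primary-granule clusters the gradients of control were also seen in Mll3/4SI, at a lower level. Ranked by CD11b, an integrin that appears as granulocytes mature, the 4 sets of control cells held 398.5, 678.2, 903.3 and 1158 CPM of Rgcc, and those of Mll3/4SI held 15.7, 39.6, 103.3 and 104.6. Mll3SI ran from 450.9 to 1128 and Mll4SI from 323.0 to 1046. Ranked by CD34, a progenitor antigen that is lost on maturation, control ran down from 1189 to 435.3 CPM and Mll3/4SI from 133.0 to 10.8. The gap to control was thus wider in the set highest in CD34 than in the lowest. The sets were cut within each library and do not match in antibody level. Their median CD34 ran from -1.26 to 0.83 in control and from -1.98 to 0.56 in Mll3/4SI. Median CD11b ran from -1.61 to 1.37 and from -0.95 to 2.81 (centred log2 of UMIs + 1). Both antibodies were chosen after the values were seen.

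**Figure D3:**
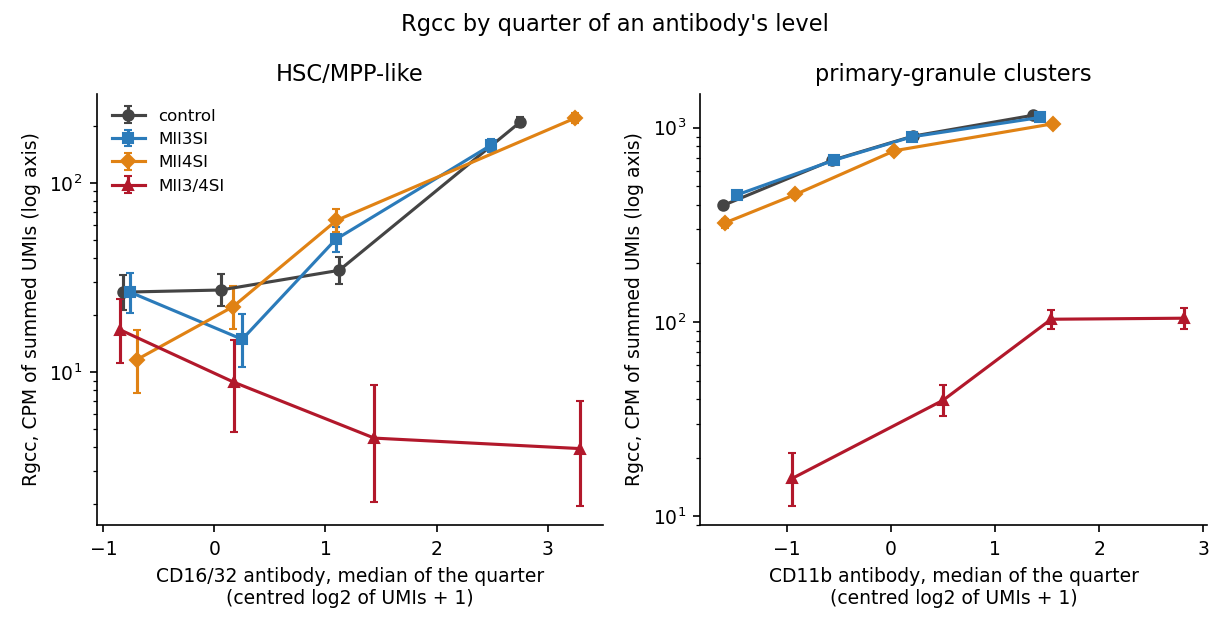
Rgcc in CPM of summed UMIs (log axis) against the median antibody level (centred log2 of UMIs + 1) of 4 equal sets of cells ranked by CD16/32 in HSC/MPP-like cells and by CD11b in the primary-granule clusters, with 1 line for each library and Poisson intervals for counting error. In HSC/MPP-like cells Rgcc climbs with CD16/32 to between 157.6 and 219.4 CPM in control, Mll3SI and Mll4SI but ends at 3.94 CPM in Mll3/4SI, whereas along CD11b all 4 libraries climb.

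Rgcc also varied with the summed RNA of 15 genes of CDK1 and mitosis. In control HSC/MPP-like cells ranked by that sum, the 4 sets held 39.3, 68.4, 144.9 and 73.9 CPM from lowest to highest, and in Mll3/4SI 18.6, 9.61, 6.91 and 1.99. In the primary-granule clusters the control sets held 577.6, 725.5, 785.8 and 968.7 CPM and the Mll3/4SI sets 49.0, 72.4, 70.1 and 65.6. Over all granulocyte-monocyte-like cells the direction was another one: the control sets held 426.0, 454.3, 251.1 and 239.4 CPM and the Mll3/4SI sets 41.9, 35.6, 29.3 and 35.05. Rgcc thus had no single relation to the division genes in control.

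Erythroid-like cells were the class in which Rgcc was low in every library, at 17.8, 15.5, 24.0 and 26.7 CPM (control, Mll3SI, Mll4SI, Mll3/4SI). The higher Mll3/4SI value came from 1 cell. That cell held 43 of the 63 Rgcc UMIs among 95 cells, with 54865 gene UMIs, 17 of Klf1 (an erythroid transcription factor), 1 of Elane and 2 of Mpo. Without the cell of the most Rgcc UMIs in each library, an alternative added after the data were seen, the levels were 15.2, 14.1, 18.7 and 8.68 CPM, and the log2 ratio of Mll3/4SI turned from 0.58 to -0.81 [-1.58 to -0.10]. The share of thinned erythroid-like cells with an Rgcc UMI, a reference for the level that RNA free in the droplets could give, was 4.14%, 5.30%, 2.04% and 2.17%. The Mll3/4SI shares in HSC/MPP-like cells (2.38%) and monocyte-like cells (2.01%) were near the last of these, with median depths of 25987, 31407 and 21197 gene UMIs. That reference rests on 2 of 92 cells [0.26% to 7.63%], and the cell with 43 Rgcc UMIs was not left out of it. Cluster 21 of the same library lay under it, at 0.63%, so it is a loose reference and not a floor. Whether the HSC/MPP-like and monocyte-like shares stand above background therefore cannot be told. The Mll3/4SI shares of the primary-granule clusters (15.8%) and of the other granulocyte-like clusters (9.33%) were above the interval of the reference.

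Dendritic-like cells numbered 38 in control and 23 in Mll3SI and under 20 in the other libraries, with 3 and 12 Rgcc UMIs (5.79 and 46.2 CPM, a log2 ratio of 2.997 [1.11 to 5.46]). The unnamed clusters that came almost only from Mll3/4SI held little Rgcc: 16.5 CPM in cluster 16, led by Cpa3, Mpo and Ms4a3, 1.92 in cluster 21, led by Cpa3 and Fcer1a, and 7.14 in cluster 22, led by Angpt1 and Pf4. Cluster 16 carried 346 Rgcc UMIs in 936 Mll3/4SI cells, while its 2 control cells carried 52. Without these 3 clusters, an alternative added after the data were seen, the log2 ratio of Mll3/4SI over all cells was -3.16, so the difference was also present without them.

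Across the 6743 control cells, the genes whose log level was most correlated with Rgcc included 3 known from granulocyte-monocyte progenitors and their primary granules, Ms4a3, Prss57 and Elane. Pearson's r was 0.57 for Ms4a3 (a membrane protein of granulocyte-monocyte progenitors), 0.56 for Prss57 (an azurophil serine protease), 0.55 for Alas1 (the first enzyme of haem synthesis), 0.52 for Clec12a (a myeloid lectin receptor) and 0.52 for Elane (neutrophil elastase). Anxa3, Gsr, Atp6ap2, Tmx4 and B4galt6 followed at 0.50 to 0.47. The lowest were Gm42418 at -0.58, AY036118 at -0.52, Cmss1 at -0.52, Gphn at -0.42 and the stem cell ligand gene Angpt1 at -0.40. These coefficients describe cells of 1 library, which share their source, and Rgcc itself had an r of 0.24 with the log of a cell's UMIs. The coordinates of Gm42418 and AY036118 overlap on chromosome 17, so these genes may not be separate signals. Whether the lowest coefficients have a technical source was not tested. In control granulocyte-monocyte-like cells the highest were Prss57 (0.56), Nkg7 (0.54), Ms4a3 (0.53), Cst7 (0.48) and Srgn (0.48). In control HSC/MPP-like cells they were Elane (0.70), Ms4a3 (0.62), Alas1 (0.58), Gda (0.57) and Cldn15 (0.56).

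Within the primary-granule clusters, the genes most correlated with Rgcc were near control in Mll3/4SI. Elane stood at 10227 CPM in control and 10921 in Mll3/4SI, Ms4a3 at 1515 and 1834, Prss57 at 239.8 and 275.8, and Alas1 at 485.9 and 477.4. Over the 10 genes most correlated with Rgcc, log2 ratios (of CPM + 1) in these clusters ran from -0.06 to 0.28 in Mll3/4SI, against -3.57 for Rgcc on that scale. Rgcc, Elane and Ms4a3 were kept out of the clustering, but the others of the 10 were not barred from it. These clusters were also picked by their leading primary granule genes. The likeness of the 10 genes to control may thus come in part from the grouping, which was not tested. Among HSC/MPP-like cells the r of Elane with Rgcc was 0.70, 0.64, 0.80 and -0.07 (control, Mll3SI, Mll4SI, Mll3/4SI), while Elane itself stood at 1042, 1096, 1789 and 1237 CPM. In such sparse counts a low r carries little weight, since only 13.3% of those Mll3/4SI cells had an Rgcc UMI. Over the whole granulocyte-monocyte-like class, 3 of the 5 genes of highest r there were lower in Mll3/4SI as well. Nkg7, a granule membrane protein, stood at 289.3 CPM in control and 106.3 in Mll3/4SI (-1.44), Srgn at 1069 and 592.0 (-0.85), and Cst7 at 90.1 and 58.8 (-0.61). Prss57 and Ms4a3 were both at -0.02.

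**Figure D4:**
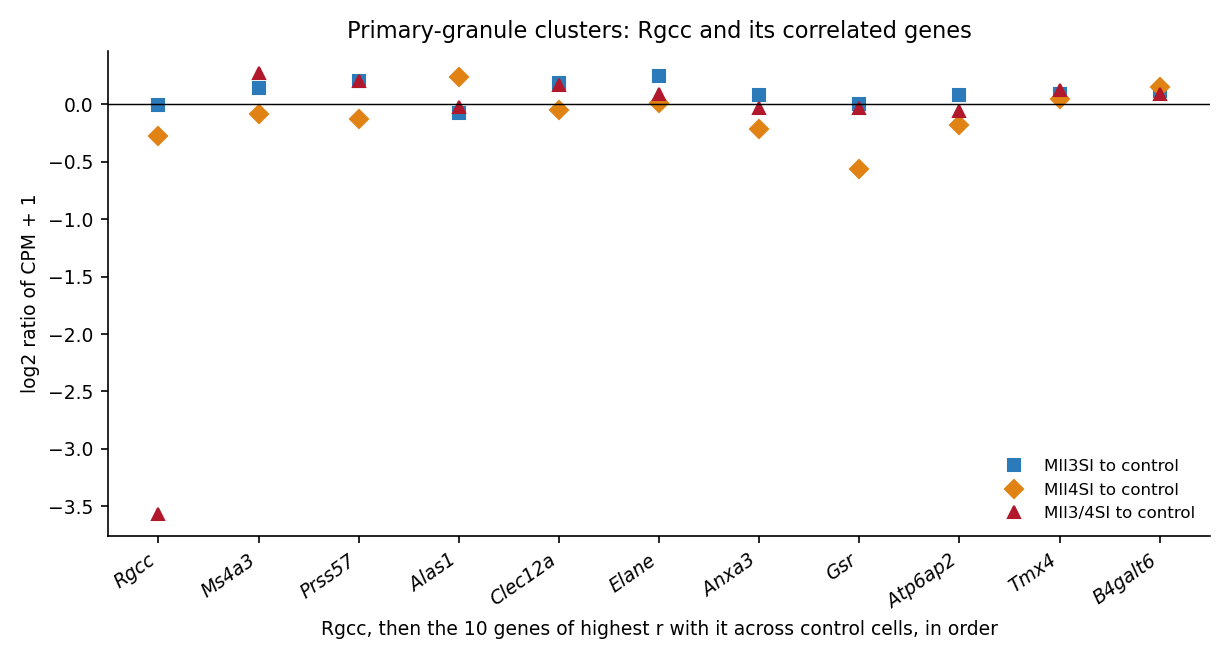
Log2 ratio of CPM + 1 to control in the primary-granule clusters for Rgcc and the 10 genes of highest r with it across control cells, with 1 point for each of Mll3SI, Mll4SI and Mll3/4SI. Rgcc in Mll3/4SI lies at -3.57, and the 10 genes lie between -0.06 and 0.28 there.

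Over 22 profiles of a class in a library, each of at least 50 cells, the genes closest to Rgcc were Impa1 (inositol monophosphatase, r = 0.70) and Setd1b (another histone H3 lysine 4 methyltransferase, r = 0.69). Rnaset2b, Msl1, Sft2d1, Slc35a5, Rac1, Abhd10, Sh3bp2 and Gm15886 followed at 0.69 to 0.64. None of these 10 was lower in Mll3/4SI over all cells by a log2 ratio of 1 or more, and the lowest was Rnaset2b at -0.92. Only 0.661% of all genes tested were lower by that much, so this says little about the 10 genes. The profiles of 1 library share their depth and preparation, and none of the 8619 genes compared followed Rgcc closely.

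Few genes were as low in Mll3/4SI and near control in the other libraries. Of 8235 genes at 10 CPM or more in control, 8 had a log2 ratio of -3 or less in Mll3/4SI over all cells, and 2 of these stayed within 1 of control in both Mll3SI and Mll4SI: Rgcc and Siglece. Siglece, an inhibitory sialic acid receptor of myeloid cells, stood at 55.1, 58.7, 78.9 and 1.56 CPM. Of the other 6, 1700016D06Rik and Tpm3-rs7 were also low in Mll3SI, and the Y-linked Kdm5d, Eif2s3y, Uty and Ddx3y were also low in Mll4SI. Rgcc in Mll4SI was at 227.1 CPM, while the sex-linked RNAs were at like levels in Mll4SI and Mll3/4SI. Those RNAs also separate control from Mll3/4SI. A part of sex in the Rgcc difference was not tested and cannot be told apart from that of the group. In HSC/MPP-like cells the same rule gave Rgcc and 5033406O09Rik (21.9, 20.4, 17.8 and 1.36 CPM). In the primary-granule clusters it gave Rgcc, Car3 (11.5, 7.13, 7.54 and 0.089 CPM) and Zfp976 (10.0, 9.08, 12.01 and 0.18 CPM). The rule used the contrast by which Rgcc was chosen, and is a description.

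Genes next to Rgcc on chromosome 14 did not share its low level. Within 1 Mb there were 24 other genes of the file, 12 of which reached 1 CPM in any library. The nearest of these, Naa16 (23.6 kb away, a subunit gene of an N-terminal acetyltransferase), stood at 60.9, 59.4, 58.1 and 61.1 CPM (control, Mll3SI, Mll4SI, Mll3/4SI). On the other side Vwa8 (86.4 kb away) stood at 40.7, 40.6, 44.7 and 45.1 CPM. None of the 12 was lower or higher by a log2 ratio of 1 in Mll3/4SI, where 0.661% of all genes tested were lower and 0.833% higher by that much. Their log2 ratios ran from -0.94 for Olfm4 (682.4 kb away, a secreted glycoprotein of neutrophil granules, 42.6 CPM in control and 21.7 in Mll3/4SI) to 0.65 for Akap11, with a median of -0.02 against -0.07 over all genes. None was past 1 in the other libraries either, where 0.220% of genes were lower and 0.0980% higher by 1 for Mll3SI, and 0.600% and 0.576% for Mll4SI. In Mll4SI, Dgkh (0.97) and Olfm4 (0.92) were the highest of the 12. In granulocyte-monocyte-like cells of Mll3/4SI, Akap11 reached 1.07. The Mll3/4SI values of the remaining neighbours were -0.37 for Dgkh, -0.32 for Mtrf1, -0.43 for Kbtbd7, -0.57 for Kbtbd6, -0.04 for Wbp4, 0.15 for Elf1, 0.06 for Sugt1 and 0.09 for Cnmd.

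**Figure D5:**
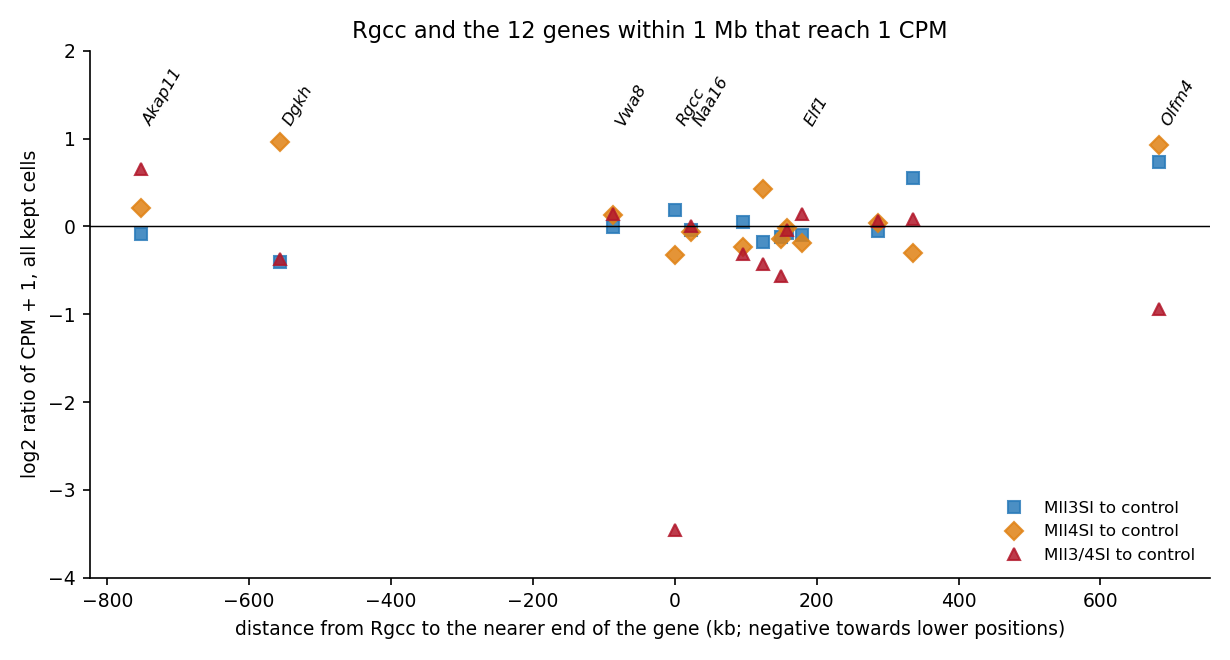
Log2 ratio of CPM + 1 to control over all kept cells for Rgcc and its 12 neighbours that reach 1 CPM, against the distance in kb from Rgcc to the nearer end of each gene, with 1 point for each of Mll3SI, Mll4SI and Mll3/4SI. Rgcc in Mll3/4SI lies at -3.46, and no neighbour lies below -0.94 or above 0.97 in any library.

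Genes of the pathways known for Rgcc, taken from lists chosen with earlier results known, mostly lay within 1 of control on the log2 scale. In granulocyte-monocyte-like cells of Mll3/4SI, where 0.694% of all genes tested were lower and 0.540% higher by a log2 ratio of 1, none of the 15 genes of CDK1 and mitosis was past 1 in either direction. Their median was 0.03, against -0.13 over all genes. Wee1, which restrains CDK1, was at -0.22 and Cdc20, an activator of mitotic exit, at -0.13. In HSC/MPP-like cells, where 0.243% of genes were lower and 0.393% higher by 1, again none was past 1. Cdk1 itself was at 202.6 CPM in control and 181.1 in Mll3/4SI there (-0.16), and Pkmyt1, a second inhibitory kinase of CDK1, at 15.3 and 19.6 (0.34).

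Of the TGF-beta and Smad list, none of the 11 genes tested in granulocyte-monocyte-like cells was past 1, with a median of -0.04. None of the 12 tested in HSC/MPP-like cells was past 1, with a median of -0.05. Over all genes, 0.694% were lower and 0.540% higher by 1 in the former cells, and 0.243% and 0.393% in the latter. Smad7, the inhibitory Smad, was the highest in HSC/MPP-like cells, at 28.4 CPM in control and 56.1 in Mll3/4SI (0.96), and was at 0.68 in granulocyte-monocyte-like cells. Tgif1, a repressor of Smad targets, was at 12.03 and 5.95 CPM in the latter (-0.91). Smad4, the common partner of the signalling Smads, was at -0.50 in HSC/MPP-like cells.

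Of the complement list, 1 of the 7 genes tested in granulocyte-monocyte-like cells was lower by 1, against 0.694% of all genes tested: C1qbp, a mitochondrial protein that also binds complement C1q, at 174.9 CPM in control and 83.3 in Mll3/4SI (-1.06). Itgam and Itgb2, the chains of complement receptor CR3, were at 0.19 and 0.22. None of the 7 genes tested of the p53 list was past 1. Trp53, the gene of p53, was at 76.3 and 50.1 CPM (-0.60), and Cdkn1a, its best-known target, was at 12.9 and 16.9 CPM in HSC/MPP-like cells (0.36). Of the list of histone H3 lysine 4 methyltransferases and partners, none of 13 was past 1, with a median of -0.11. Kdm6a, an X-linked demethylase of the same complexes, was at 0.54 in Mll3/4SI and 0.78 in Mll4SI.

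In granulocyte-monocyte-like cells of Mll3/4SI all 10 primary granule genes were below control (median -0.63), with Nkg7 lower by 1 (-1.44) and Ctsg at -0.87. Over all genes tested in these cells the median was -0.13, with 0.694% lower and 0.540% higher by 1. Within the primary-granule clusters, 5 of the 10 were above and 5 below control, none by 1, where 0.223% of genes were lower and 0.470% higher by 1, with a median of -0.04 against -0.06 over all genes. Of the 9 secondary granule genes tested in the same clusters, 4 were higher by 1 and 1 lower, with a median of 0.69. The Rgcc ratio was as low within those clusters (-3.59) as in the whole class (-3.32). Of 12 secondary granule genes, Ly6g (-1.46) and Chil3 (-1.23) were lower by 1 in granulocyte-monocyte-like cells and none was higher. The shares over all genes there were 0.694% and 0.540%, as given above. S100a8 was at 0.89 and S100a9 at 0.64. Rgcc is known as a gene of endothelium, so markers of endothelial and stromal cells were checked as well. Their summed level ran from 7.01 to 7.58 CPM over the 4 libraries, and 8 of 10 were under 1 CPM in each.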

How the data were processed

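The authors deposited, for each of the 4 libraries, a matrix of raw UMI counts for 32285 genes and 15 antibodies by cell barcode, not normalized. It was made with Cell Ranger 7.1.0 on mm10 (per the file headers and the submitters' processing notes). Settings for calling cells are not given in the sources used here.

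Barcodes were kept from 500 detected genes and 1000 gene UMIs upward, with mitochondrial UMIs of 10% or less. Simulated doublets were scored and 0.8% removed per 1000 cells, 409 to 1001 in a library. Cells of all libraries were clustered together (2000 variable genes without Rgcc, markers and listed genes, 30 principal components, 15 neighbours, Leiden resolution 1). A cluster was named where at least 3 markers had a log2 fold of at least 1 and led the next class by 2, and no more of its 10 leading genes marked another class. A cluster with low depth for its libraries and no marker of its class among its 10 leading genes also stayed unnamed. This left cluster 29 unnamed, with 10 markers of T and NK cells. The rule for ties was set after the clusters were seen. Library totals were 140546094 to 177753607 gene UMIs. CPM values have exact Poisson intervals, ratios exact conditional binomial ones and shares exact Clopper-Pearson ones, at 95%. A share of 0 was given the limit of 3 counts. Classes with fewer than 20 cells in a library got no value.

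Named genes were Rgcc, the 10 of highest and 5 of lowest r in control cells, the 5 of highest r in each of the other sets, the 10 of most similar profile, those within 1 Mb reaching 1 CPM, those at 10 CPM or more in control with log2(CPM + 1) ratios of -3 or less in Mll3/4SI, and listed genes of the largest size of change. Lists covered CDK1 and mitosis, TGF-beta and Smad, complement, p53 targets, primary and secondary granules, histone H3 lysine 4 methyltransferases, and endothelial or stromal markers. Rgcc, the lists and the classes were chosen with earlier results of these data known. Gene coordinates came from GENCODE M21, which matched 32158 of 32285 gene IDs, and the promoter from RefSeq. The ratio and its interval were tested on simulated data for Mll3/4SI against control over 8235 genes: the interval held the true value for 96%, 98%, 96% and 90% of the 50 genes given true log2 ratios of -4, -3, -2 and 1. The simulated totals were Poisson counts, as the interval assumes. They therefore cannot show how it fares where a few cells hold many of the Rgcc UMIs. Python 3.11.15, numpy 2.4.6, scipy 1.17.1, scikit-learn 1.9.0, leidenalg 0.10.2 and matplotlib 3.10.9 were used. Alternatives changed the scale, normalization, cell filter, doublets, depth, hashtag set and classes.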

Additional observations from a re-analysis of the deposited data

Results flagged for a closer look

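With 1 library for each group, none of the following differences between classes was tested, and each compares log2 ratios of Rgcc to control.

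In Mll3/4SI, Rgcc was higher than control in erythroid-like cells (0.58) and lower in B-lymphoid-like (-5.30), HSC/MPP-like (-3.54), basophil/mast-like (-5.18), granulocyte-like (-3.33) and monocyte-like cells (-5.90). The erythroid-like value came from 1 cell with 43 Rgcc UMIs and was -0.81 without the highest cell of each library.

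In Mll3SI, Rgcc was higher than control in dendritic-like (2.997, from 12 UMIs against 3) and granulocyte-like cells (0.22), and lower in HSC/MPP-like (-0.27), basophil/mast-like (-0.34) and monocyte-like cells (-0.21). In Mll4SI it was higher in HSC/MPP-like cells (0.16) and lower in granulocyte-like cells (-0.60), and the first of these changed direction with the clustering.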

How the results depend on the processing

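Over 147 alternative values of the ratios to control, 89 moved by less than the counting interval, 54 moved by more and 4 changed direction. No Mll3/4SI log2 ratio changed direction: they ran from -3.85 to -3.16 over all cells, from -4.93 to -2.78 in HSC/MPP-like cells and from -3.52 to -3.15 in granulocyte-monocyte-like cells. No paired analysis was possible because each group was 1 library. The cause of the moves below was not tested.

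For all cells, the Mll3SI log2 ratio was 0.22 with median-of-ratios scaling, 0.26 as a mean over cells, 0.21 without doublet removal, 0.33 in Hashtag1 and 0.048 in Hashtag2 cells. That of Mll4SI was -0.17, -0.43, -0.29, -0.19 and -0.42 under the same settings, and -0.47 in thinned cells. That of Mll3/4SI was -3.46 on the CPM + 1 scale, -3.29 as a mean, -3.33 thinned, -3.17 in Hashtag1 and -3.85 in Hashtag2 cells, and -3.16 without its own unnamed clusters, an alternative added after the data were seen. The median of all genes stood at -0.12 in Mll4SI, which the median-of-ratios scaling largely removes.

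For HSC/MPP-like cells, the Mll3SI ratio was -0.093 without doublet removal and -0.12 thinned. That of Mll4SI was 0.30 thinned, and turned to -0.050 at Leiden resolution 2 and -0.079 with classes of nearest control cells. That of Mll3/4SI was -2.78 as a mean, -3.06 without doublet removal, -2.9995 thinned, -3.12 in Hashtag2 cells, -4.93 at resolution 2 and -4.50 with nearest control classes.

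In granulocyte-monocyte-like cells, the Mll3SI ratio was 0.23 as a mean, 0.31 in Hashtag1 and 0.00075 in Hashtag2 cells, and 0.19 at resolution 2. That of Mll4SI was -0.38 with median-of-ratios scaling, -0.61 as a mean, -0.47 without doublet removal, -0.66 thinned, -0.35 in Hashtag1 and -0.58 in Hashtag2 cells, and 0.083 without clusters over 80% from 1 library (added after the data were seen). That of Mll3/4SI was -3.16, -3.19, -3.23 thinned, -3.15 and -3.49 by hashtag, -3.18 at resolution 2, -3.52 with nearest control classes and -3.17 without those clusters.

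Ratios of shares of cells with Rgcc also moved. For HSC/MPP-like cells of Mll3/4SI (0.177) it was 0 for at least 2 UMIs in thinned cells and 0.0613 at resolution 2. In granulocyte-monocyte-like cells it was 0.995 unthinned and 1.17 for at least 2 UMIs in Mll3SI (1.06). In Mll4SI (0.750) it was 0.806 unthinned, 0.828 at 6000 UMIs and 0.581 for at least 2 UMIs. In Mll3/4SI (0.185) it was 0.427, 0.228 and 0.0392, and 0.166 with nearest control classes.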
